A study of Homo sapiens with 12 samples.

Results

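Interferon-stimulated effector genes are the genes through which interferons act inside a cell. The 50 genes described here were taken by symbol from a gene expression table of 59276 genes in JJN3, a human multiple myeloma cell line, and all 50 were found there with a value above 0 in at least 1 sample. They were sorted by role into ISG15 and FAT10 tagging (6 genes), RNA-binding and RNA-cutting effectors (11), membrane restriction (7), GTPases and nucleotide or translation effectors (9), nuclear, TRIM and ADP-ribosylation factors (7), and mitochondrial, death-linked and other factors (10).

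Total RNA of 12 JJN3 samples was sequenced, with 3 replicates in each of 4 groups. Cells of the DMSO group received the solvent for 3 days, and cells of the MS023 group received 10 µM MS023, an inhibitor of the type I protein arginine methyltransferases (PRMTs), for 3 days. The other groups came from JJN3 cells that carried a Cas9 and mCherry lentivirus and were sorted for mCherry, and that then received a guide RNA lentivirus with puromycin selection. The isgCtrl group carried a control guide and the PRMT1-KO group the guide iPRMT1_1 against PRMT1, and both were induced with doxycycline for 3 days. Selection was by mCherry sorting and puromycin, and no source used here describes single clones. The labels do not say whether the replicates were separate cultures, and the p-values measure the spread between these samples, which may be technical. In bulk RNA, a change in every cell and a change in the share of cells that express a gene cannot be told apart.

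Interferons bind receptors at the cell surface, and the receptors pass the signal through JAK kinases to transcription factors of the STAT and IRF families. Complexes of these factors bind DNA motifs near the start of their target genes, among them the interferon-stimulated response element (ISRE) and the gamma-activated site (GAS). The target genes encode proteins that bind viral RNA, block entry or budding of viruses, tag proteins with small modifiers, or dampen the signal itself.

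The ISRE core is shown because it is a sequence that many of these genes share. RefSeq (GRCh38.p14) gave a promoter for 40 of the 50 genes, and the entries for USP18, IFIT2, OAS2, OASL, IFITM2, LY6E, MX2, GBP2, TRIM22 and APOL6 were not analysed here. The core searched was GAAA, any 2 bases and GAAA, on either strand, in the 250 bases before the start site. Only the first entry of each gene was used, so other start sites were not searched. The start site used can lie inside the annotated gene, as for ISG20. It was found in 22 of the 40 promoters (55%), against 3.07% of 27303 promoters of the same length. The windows below are written 5′ to 3′ in the direction of the gene, with the core chosen for display in capitals. The first 5 belong to genes that were higher with MS023 by the test described further on, and the last 3 to genes that did not pass it. They lie at chr1:1013370-1013419 (+, ISG15), chr15:88638927-88638976 (+, ISG20), chr19:17405731-17405780 (-, BST2), chr10:89392500-89392549 (+, IFIT1), chr1:78649751-78649788 (+, IFI44), chr10:89414503-89414552 (+, IFIT5), chr3:187368347-187368384 (+, RTP4) and chr13:42992262-42992311 (-, EPSTI1). The cores end 97, 59, 120, 93, 8, 35, 8 and 40 bases before the start site, in that order.
ISG15: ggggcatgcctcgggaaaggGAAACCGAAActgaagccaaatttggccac
ISG20: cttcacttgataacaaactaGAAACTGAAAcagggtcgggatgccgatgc
BST2: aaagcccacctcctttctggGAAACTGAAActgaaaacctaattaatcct
IFIT1: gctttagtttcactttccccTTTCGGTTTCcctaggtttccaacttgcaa
IFI44: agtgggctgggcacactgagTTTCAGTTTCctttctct
IFIT5: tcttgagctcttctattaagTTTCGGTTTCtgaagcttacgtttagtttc
RTP4: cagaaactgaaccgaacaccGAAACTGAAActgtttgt
EPSTI1: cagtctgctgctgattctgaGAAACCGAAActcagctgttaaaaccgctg

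Read on either strand, the core displayed had the same letters in ISG20, BST2, IFI44 and RTP4, and the same letters in ISG15, IFIT1, IFIT5 and EPSTI1. This match depends on which core was displayed. Within the 250 bases, ISG15, IFIT1, IFIT5 and RTP4 also hold a core with other letters, and BST2 a further one with the same letters. Members not displayed, such as IFITM1 and LGALS3BP, have cores with other letters. Of the members with a promoter entry, the ISRE core was present in 11 of 21 that rose with MS023 and in 8 of 12 that were tested and did not pass. It was absent from this window of UBD and UBE2L6, the members that rose after PRMT1 knockout. The GAS core, TTC, any 3 bases and GAA, was found in 8 of the 40 promoters (20%), against 6.78% of all promoters. A match describes the letters in this window and does not show that a factor bound there.

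Levels are given as TPM, a transcript abundance corrected for gene length and scaled to the same total in every sample. Differences are on the scale of log2(TPM+1), which understates the change of genes with low levels. PRMT1 itself stood at 634, 657 and 670 TPM in DMSO, 664, 700 and 656 in MS023, 867, 863 and 849 in isgCtrl, and 302, 309 and 301 in PRMT1-KO. All PRMT1-KO samples were below all isgCtrl samples (log2 fold change -1.50 ± 0.04 SE, adjusted p = 7.2e-04). The plasma cell markers SDC1, TNFRSF17, IRF4, PRDM1 and XBP1 were present in every sample at 21.4 TPM or more. Not all of these markers kept the same level across the groups. XBP1 was higher with MS023, at 491.2, 498.5 and 499.6 TPM against 218.7, 226.7 and 226.3 TPM in DMSO. IRF4 was higher with the control guide, where samples 1, 2 and 3 had 155.3, 154.9 and 162.2 TPM. The DMSO samples had 94.76, 89.53 and 100.9 TPM of IRF4. MZB1, SLAMF7 and CD38 also differed between groups. MZB1 held 103 to 107 TPM in DMSO and 175 to 181 TPM in MS023, but at most 2.42 TPM in isgCtrl and 1.57 TPM in PRMT1-KO. SLAMF7 held 8.71 to 10 TPM in DMSO, 48.1 to 54.7 in MS023, and at most 0.520 in isgCtrl and 0.657 in PRMT1-KO. CD38 was lower with MS023, at 2.06 to 2.38 TPM against 4.65 to 5.41 TPM in DMSO. It held at most 1.84 TPM in isgCtrl and 0.985 TPM in PRMT1-KO. The 8 plasma cell markers summed to 716 to 755 TPM in DMSO and 1153 to 1197 TPM in MS023, with 653 to 667 TPM for isgCtrl and 627 to 631 TPM for PRMT1-KO. None of 4 B cell or 5 T and NK cell markers had a mean log2(TPM+1) above 1 in any group. Of 5 myeloid markers, summed to 0.842 to 2.08 TPM in DMSO and 4.5 to 10.7 in MS023, most of the sum was CD68. The part of these differences in the results was not tested.

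The 50 genes together held 1387 to 1421 TPM in DMSO, 2256 to 2289 TPM in MS023, and 1090 to 1116 TPM for isgCtrl against 1302 to 1324 TPM for PRMT1-KO. BST2 and LY6E, both at the cell surface, were the most abundant in DMSO at 420 ± 13.7 and 372 ± 2.63 TPM (SD, n = 3). IFITM1 followed at 100 ± 6.77 TPM and ADAR at 86.1 ± 4.61 TPM. ADAR did not stand apart from IFI27L2 (76.5 ± 15.3 TPM), whose samples overlapped with it. At the other end, 9 members stayed under a mean log2(TPM+1) of 1 in every group and were not tested: HERC6, OAS3, DDX60, MX2, RSAD2, CMPK2, TRIM22, XAF1 and IFI44L. Their highest single value was 1.29 TPM, for XAF1 in DMSO replicate 2. RSAD2, the antiviral enzyme viperin, had 0.0270, 0.0686 and 0.00857 TPM in DMSO and 0.528, 1.09 and 0.579 TPM in MS023, without overlap but with no test at these levels.

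**Figure D1:**
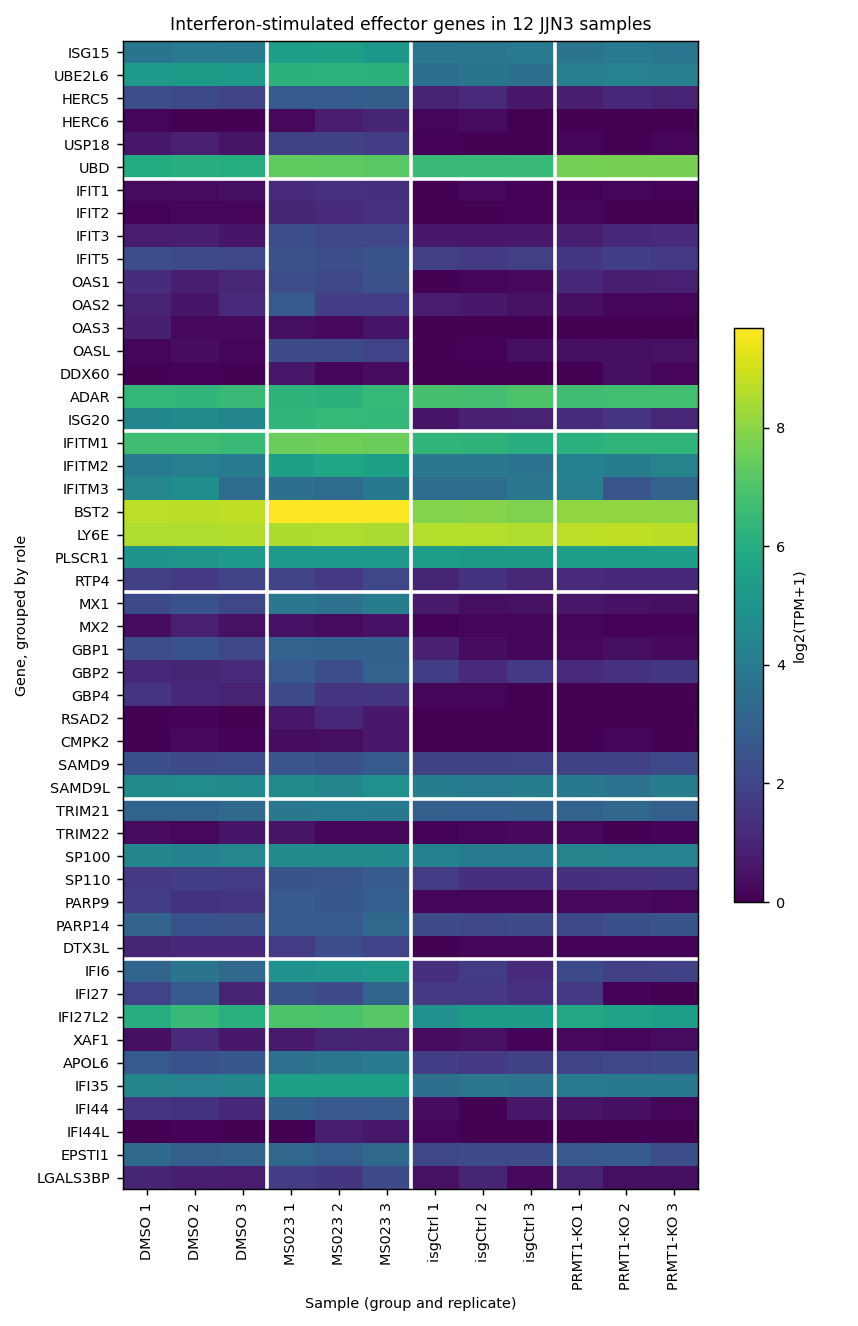
Heat map of the level, log2(TPM+1), of the 50 members (vertical axis, grouped by role between white lines) in the 12 samples (horizontal axis, 3 per group). BST2 and LY6E are the brightest rows in DMSO, ISG20 is dark in the isgCtrl and PRMT1-KO samples (0.456 to 1.82 TPM), and several rows such as IFI44L and RSAD2 are dark throughout.

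The comparison of MS023 with DMSO asks what the inhibitor did to these genes. A gene entered the limma test if its mean log2(TPM+1) exceeded 1 in at least 1 of the compared groups. It was called if the Benjamini-Hochberg adjusted p was below 0.05 and the log2 fold change exceeded 0.48 in size. Of the 41 members tested, 28 rose with MS023 and none fell, beside 30.9% of all 12903 genes tested that were called, 11.6% higher and 19.3% lower. Without UBD and IFI27L2, which the study named from its PRMT1-KO and isgCtrl samples, 26 rose. At an unadjusted p under 0.05 there were 32 members, all of them higher, and 56.5% of all genes. The median log2 fold change was 0.95 over the members tested and -0.11 over all genes tested. All MS023 samples were above all DMSO samples for 32 members (23.2% of all genes) and below them for LY6E alone (36.3%).

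The expression threshold shaped this count. Of the 41 members, 34 were above it in both groups, and 21 of these rose. The other 7 (USP18, IFIT1, IFIT2, IFIT3, OAS2, OASL and LGALS3BP) passed it only through their MS023 samples, so they could enter the test only by being higher there. After median-ratio scaling the median of all genes moved up by 0.10, from -0.11 to -0.01, and the same 28 members were called.

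**Figure D2:**
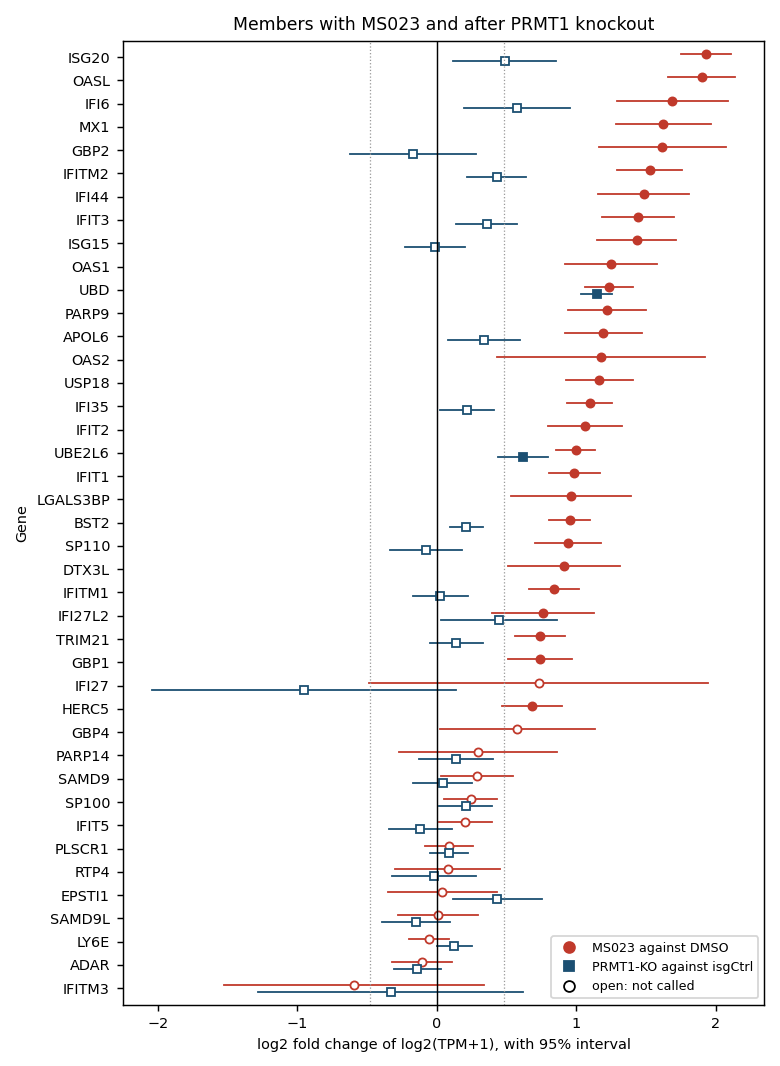
Log2 fold change of log2(TPM+1) with its 95% interval (horizontal axis) for the 41 members tested with MS023 (vertical axis), in MS023 against DMSO (red circles) and, where tested, in PRMT1-KO against isgCtrl (blue squares). Filled symbols passed the test, dotted lines mark 0.48 on either side, and 28 red but only 2 blue symbols (UBD and UBE2L6) are filled.

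All 5 tested members of the ISG15 and FAT10 tagging group rose, of which USP18 entered the test only through its MS023 samples. The share of all genes called higher, 11.6%, stands beside this count and those of the role groups below. ISG15, a ubiquitin-like modifier that is joined to other proteins, stood at 12.6, 15.2 and 14.8 TPM in DMSO and 41.7, 43.9 and 34.7 TPM in MS023, a difference of 1.43 ± 0.12 (SE, adjusted p = 3.4e-04). UBE2L6, the enzyme that carries ISG15 to its targets, went from 36.7, 37.6 and 36.9 TPM to 74.6, 76.3 and 74.1 TPM (1.00 ± 0.06, adjusted p = 1.1e-04). For HERC5, the ligase of the same reaction, the DMSO samples held 3.86, 3.56 and 2.98 TPM and the MS023 samples 6.14, 6.0 and 6.32 TPM (0.68 ± 0.09, adjusted p = 0.00171). The carrier, the ligase and the modifier therefore all rose without overlap between the groups. USP18, which removes ISG15 and also dampens the interferon receptor, was low at 0.533, 0.781 and 0.429 TPM and reached 2.62, 2.63 and 2.35 TPM (1.17 ± 0.10, adjusted p = 3.8e-04). UBD encodes FAT10, a modifier that directs proteins to the proteasome, and its levels were 61.9, 68.6 and 62.5 TPM against 157, 154 and 148 TPM (1.24 ± 0.07, adjusted p = 1.1e-04). Again no MS023 sample of these genes reached down to a DMSO sample.

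Among the RNA-binding and RNA-cutting effectors, 7 of 9 tested members rose. Of these 7, IFIT1, IFIT2, IFIT3, OAS2 and OASL entered the test only through their MS023 samples. ISG20, an exonuclease that degrades RNA, had the largest rise of all members on the log2(TPM+1) scale, from 21.0, 23.1 and 20.5 TPM to 80.7, 88.2 and 85.6 TPM (1.93 ± 0.07, adjusted p = 5.5e-05). OASL, an OAS-like protein without the synthetase activity of its relatives, rose from 0.0848, 0.247 and 0.124 TPM to 3.6, 3.48 and 2.85 TPM (1.90 ± 0.10, adjusted p = 8.9e-05). With a pseudocount of 0.1 in place of 1, OASL (3.80) and IFIT2 (2.85) rose by more than ISG20 (1.97). OAS1 makes the 2-5A messenger that switches on RNase L, and it rose from 1.35, 0.741 and 1.04 TPM to 3.92, 3.29 and 4.31 TPM (1.25 ± 0.14, adjusted p = 8.9e-04). All 3 were thus higher in every MS023 sample than in any DMSO sample. OAS2, its larger relative, was more scattered, at 0.877, 0.516 and 1.31 TPM in DMSO and 5.66, 2.37 and 2.39 TPM in MS023 (1.18 ± 0.31, adjusted p = 0.0210). Its call was lost without DMSO replicate 1 (adjusted p = 0.0594) and without DMSO replicate 2 (adjusted p = 0.0640).

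The IFIT genes, which encode a family of RNA-binding proteins, lie near each other at chr10:89283694-89421605 (hg38, GENCODE v44). IFIT1 rose from 0.224, 0.205 and 0.293 TPM to 1.29, 1.60 and 1.49 TPM (0.99 ± 0.07, adjusted p = 2.7e-04). For IFIT2 the levels were 0.0723, 0.0984 and 0.0986 TPM against 1.01, 1.24 and 1.63 TPM (1.06 ± 0.11, adjusted p = 7.0e-04). For IFIT3 they were 0.662, 0.772 and 0.506 TPM against 4.04, 3.16 and 3.23 TPM (1.44 ± 0.11, adjusted p = 2.5e-04). IFIT5, the fourth member there, was the most abundant of them in DMSO and did not pass the test: 3.95, 3.50 and 3.33 TPM in DMSO stood against 4.25, 4.06 and 4.56 TPM in MS023 (0.20, 95% interval 0.01 to 0.40, adjusted p = 0.0739). ADAR, the enzyme that turns adenosine into inosine in duplex RNA, overlapped between the groups (-0.10, interval -0.32 to 0.11), and its sign turned under median-ratio scaling.

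**Figure D3:**
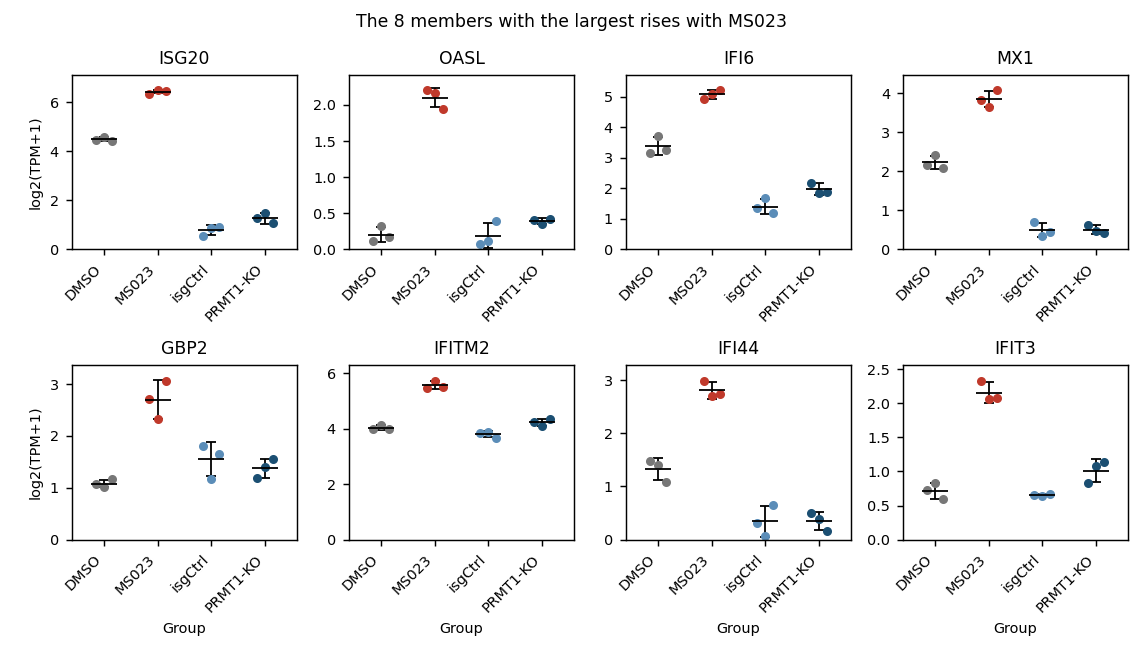
Level in log2(TPM+1) (vertical axes, from 0) of the 8 members with the largest rises with MS023 on this scale, in the 4 groups (horizontal axes). Points are samples, and bars show the mean and SD of 3. The MS023 samples stand above those of every other group in each panel, and ISG20, IFI6, MX1 and IFI44 are lower in isgCtrl than in DMSO.

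In the membrane group 3 of 7 members rose (BST2, IFITM1 and IFITM2), beside 11.6% of all genes tested that were called higher. BST2, or tetherin, holds budding virus particles at the cell surface, and its 417, 408 and 435 TPM in DMSO compared with 805, 823 and 812 TPM in MS023 (0.95 ± 0.06, adjusted p = 1.4e-04). IFITM1 and IFITM2 belong to a family that keeps viruses from fusing with cell membranes. IFITM1 stood at 104, 104 and 92.5 TPM against 179, 184 and 177 TPM (0.84 ± 0.07, adjusted p = 4.1e-04). IFITM2 stood at 14.8, 16.5 and 15 TPM against 43.2, 52.2 and 44.3 TPM (1.53 ± 0.10, adjusted p = 1.4e-04). Their neighbour IFITM3 did not follow: 21.7, 27.2 and 9.35 TPM in DMSO overlapped with 11, 9.54 and 14.2 TPM in MS023 (-0.59, interval -1.52 to 0.34, adjusted p = 0.241). Without DMSO replicate 3, its lowest DMSO sample, IFITM3 was called lower with MS023 (-1.02, adjusted p = 0.0122). The IFITM genes are near copies of each other and share reads, so their separate values are uncertain, and a gene model on the same strand overlaps exons of IFITM1 and IFITM2.

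The remaining membrane members did not pass the test. LY6E, a lipid-anchored surface protein, had -0.06 (interval -0.20 to 0.09), a sign that turned under median-ratio scaling. PLSCR1, a scramblase of membrane lipids, had 0.09 (-0.08 to 0.26). RTP4, a chaperone of receptors, had 0.08 (-0.30 to 0.45). For LY6E and PLSCR1 the intervals leave room for changes of at most 0.26 in either direction.

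Of the 6 tested GTPases and nucleotide or translation effectors, 3 rose. MX1 forms rings that trap viral components, and it went from 3.47, 4.36 and 3.25 TPM to 13.2, 11.6 and 15.8 TPM (1.62 ± 0.14, adjusted p = 3.9e-04). GBP1 and GBP2 are GTPases that coat invading microbes. GBP1 rose from 3.95, 4.44 and 3.34 TPM to 7.28, 7.13 and 7.09 TPM (0.74 ± 0.09, adjusted p = 0.00158). GBP2 rose from 1.09, 1.02 and 1.24 TPM to 5.58, 4.0 and 7.38 TPM (1.62 ± 0.19, adjusted p = 0.00109). GBP4 was higher in every MS023 sample, at 3.54, 1.83 and 1.88 against 1.75, 1.14 and 0.904 TPM, and did not pass the test (0.58, interval 0.02 to 1.13, adjusted p = 0.0797). SAMD9 (0.29, interval 0.03 to 0.55) and SAMD9L (0.01, interval -0.28 to 0.30), which act on translation, did not pass it either. The GBP genes are also close relatives, and exons of GBP2 overlap those of GBP7 on the same strand.

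In the nuclear, TRIM and ADP-ribosylation group, 4 of 6 tested members rose. PARP9 and DTX3L act as a pair that modifies ubiquitin and histones, and their genes overlap head to head at chr3:122527924-122564577 and chr3:122564338-122575203. PARP9 stood at 2.39, 1.66 and 1.80 TPM in DMSO and 5.86, 5.32 and 6.36 TPM in MS023 (1.22 ± 0.12, adjusted p = 5.5e-04). DTX3L stood at 0.982, 1.18 and 1.09 TPM against 2.18, 3.96 and 2.83 TPM (0.91 ± 0.16, adjusted p = 0.00560). Whether the counting used strand is not given in the sources used here, so reads from the overlap of this pair cannot be told apart. PARP14, the next gene of the locus, overlapped between the groups at 7.57, 4.38 and 4.27 against 5.94, 5.81 and 8.56 TPM (0.30, interval -0.27 to 0.87).

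SP110 and SP100, nuclear body proteins, are encoded near each other at chr2:230165186-230545606. SP110 rose from 2.04, 2.45 and 2.21 TPM to 4.78, 4.95 and 5.94 TPM (0.94 ± 0.10, adjusted p = 7.2e-04). SP100 stood at 20.8, 18.1 and 21.2 TPM against 23.7, 23.8 and 23.9 TPM, a difference of 0.24 ± 0.08 that passed the adjusted p (0.0437) but not the fold change threshold. TRIM21, a cytosolic antibody receptor and ubiquitin ligase, rose from 7.79, 7.59 and 8.81 TPM to 13.8, 14.5 and 14.1 TPM (0.74 ± 0.07, adjusted p = 6.9e-04).

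Among the mitochondrial, death-linked and other members, 6 of 8 tested rose, of which LGALS3BP entered the test only through its MS023 samples. IFI6, a mitochondrial and ER protein linked to protection from cell death, went from 7.96, 12.1 and 8.65 TPM to 29.2, 33.2 and 35.9 TPM (1.69 ± 0.16, adjusted p = 5.8e-04). IFI44 went from 1.78, 1.66 and 1.13 TPM to 6.95, 5.5 and 5.68 TPM (1.49 ± 0.13, adjusted p = 4.6e-04). APOL6, an apolipoprotein L relative linked to cell death, went from 5.76, 4.46 and 5.11 TPM to 11.7, 12.8 and 14.5 TPM (1.20 ± 0.11, adjusted p = 5.5e-04). None of the 3 had a DMSO sample within the range of its MS023 samples. IFI35, a cytosolic leucine zipper protein, stood at 20.4, 18.7 and 20.6 TPM against 43.4, 42.7 and 44.7 TPM (1.1 ± 0.07, adjusted p = 1.4e-04). LGALS3BP, a secreted glycoprotein that binds galectins, stood at 1.00, 0.777 and 0.711 TPM against 2.38, 1.91 and 3.59 TPM (0.96 ± 0.18, adjusted p = 0.00592). IFI27L2, of the same small family as IFI6, was at 65.4, 93.9 and 70.1 TPM against 125, 121 and 142 TPM (0.76 ± 0.15, adjusted p = 0.00784).

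IFI27, which lies beside IFI27L2, and EPSTI1 were not called. IFI27 was the most scattered member of the DMSO group, at 2.91, 5.86 and 0.878 TPM, against 4.56, 3.64 and 7.91 TPM in MS023 (0.73, interval -0.48 to 1.95). EPSTI1 overlapped fully, with 9.22, 6.53 and 7.53 against 8.24, 6.52 and 9.29 TPM (0.04, interval -0.35 to 0.43).

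The comparison of PRMT1-KO with isgCtrl asks the same of a single guide against PRMT1. PRMT1 RNA remained at 301 to 309 TPM there, against 849 to 867 TPM in isgCtrl. Of the 27 members tested, UBD and UBE2L6 rose and none fell, beside 0.781% of all 12285 genes tested that were called, 0.415% higher and 0.366% lower. UBD stood at 91.3, 92.9 and 90.6 TPM in isgCtrl and 200, 204 and 208 TPM in PRMT1-KO (1.15 ± 0.05, adjusted p = 0.00208). It is a gene the study named from these samples and is not independent evidence. Its exons overlap those of GABBR1 on the same strand and OR2I1P on the opposite strand, and reads from the shared parts cannot be told apart. UBE2L6 stood at 10.6, 12.6 and 11 TPM against 17.9, 18.5 and 17.8 TPM (0.62 ± 0.07, adjusted p = 0.0341). Its samples did not overlap, but the call was lost when any of the 6 samples was left out, with an adjusted p of 0.0663 to 0.118.

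Of the 27, ISG20 and IFIT3 exceeded the expression threshold only in PRMT1-KO, so they could enter the test only by being higher there, and IFI27 only in isgCtrl. At an unadjusted p under 0.05 there were 12 members, all of them higher, where 18.6% of all genes passed. The median log2 fold change was 0.14 over the members tested and -0.04 over all genes. All PRMT1-KO samples were above all isgCtrl samples for 13 members (9.11% of all genes) and below them for ADAR alone (17.6%). The counts of 12 and 13 include members that entered through 1 group. Those 13 included IFI6 with 1.54, 2.2 and 1.27 TPM against 3.56, 2.61 and 2.70 TPM (0.57 ± 0.16, adjusted p = 0.150) and ISG20 with 0.456, 0.854 and 0.888 TPM against 1.40, 1.82 and 1.08 TPM (0.49 ± 0.15, adjusted p = 0.186). IFITM2 was also among them, at 13.4, 13.6 and 11.8 TPM against 18.0, 16.1 and 19.2 TPM (0.43 ± 0.09, adjusted p = 0.0952). For BST2 the levels were 233, 240 and 226 TPM in isgCtrl against 268, 272 and 269 TPM in PRMT1-KO (0.21 ± 0.05, adjusted p = 0.114). These differences did not pass the adjusted threshold.

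ISG15 lay on top of its control, at 13.2, 12.8 and 14.4 TPM in isgCtrl and 12.3, 15 and 12.9 TPM in PRMT1-KO (-0.01, interval -0.22 to 0.20), and its sign turned under both scalings tried. IFI27 stood at 2.02, 2.06 and 1.61 TPM in isgCtrl and at 2.11, 0.0541 and 0.0115 TPM in PRMT1-KO, where replicate 1 was apart from the others. It entered the test only through isgCtrl and did not pass (-0.95, interval -2.04 to 0.14). Without PRMT1-KO replicate 1 it was called lower (-1.48, adjusted p = 0.0327). The remaining 23 members were under the threshold in both groups. Of the 28 members that rose with MS023, 13 were in that position, 13 were tested and not called, and UBD and UBE2L6 were called in both. The matching overlap over all genes was not counted, and the UBE2L6 call did not hold with any sample left out.

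The size of the MS023 effect was then set against that of PRMT1-KO in a fit of all 12 samples, since a gene called in only the MS023 comparison need not differ between the effects. The MS023 effect was larger for 24 of 41 members and smaller for none, beside 24.4% of 13256 genes tested that were called, 9.69% higher and 14.7% lower. At an unadjusted p under 0.05 there were 30 members and 45.1% of all genes, and LY6E was the only one of them with the larger effect in PRMT1-KO. All 24 are among the 28 that rose with MS023. Of the 24, 6 (USP18, IFIT1, IFIT2, OAS2, OASL and LGALS3BP) exceeded the expression threshold in the MS023 group alone and so could enter only by being high there. Leaving them out, the count is 18 of 35. Those 18 still include HERC5, MX1, GBP1, PARP9, DTX3L and IFI44, which were under the threshold in both guide groups. Their PRMT1-KO effects were thus read from low levels. On the log2(TPM+1) scale the difference was largest for GBP2 (1.79 ± 0.28, adjusted p = 8.6e-04), whose MS023 effect of 1.62 stood beside a PRMT1-KO effect of -0.17. With a pseudocount of 0.1, OAS2 (3.00), OASL (2.93) and IFIT2 (2.91) exceeded it (2.44). For ISG15 the effects were 1.43 and -0.01 (difference 1.44 ± 0.15, adjusted p = 6.7e-05), and for BST2 they were 0.95 and 0.21 (0.74 ± 0.07, adjusted p = 2.2e-05). LGALS3BP had the largest adjusted p of the 24 (0.0401), and its call was lost under most alternatives that left out 1 sample. Leaving out 1 sample also brought in GBP4 (without DMSO replicate 1, 0.76) and IFI27 (without DMSO replicate 2, 2.13, or PRMT1-KO replicate 1, 2.21).

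The 4 members that rose with MS023 and whose effects did not pass as different were UBD, UBE2L6, OAS1 and IFI27L2. For UBD the effects were 1.24 and 1.15, with a difference of 0.09 (interval -0.08 to 0.26). For UBE2L6 they were 1.00 and 0.62, and the difference of 0.38 ± 0.09 passed the adjusted p (0.00709) but not the fold change threshold, which it did pass under median-ratio scaling (0.49, adjusted p = 0.00388). OAS1 was under the threshold in both guide groups, at 0.0434, 0.0914 and 0.144 TPM in isgCtrl and 1.14, 0.760 and 0.813 TPM in PRMT1-KO, which did not overlap, and its difference between the effects was 0.45 (interval 0.07 to 0.84, adjusted p = 0.0630). That of OAS1 passed without DMSO replicate 1, MS023 replicate 2 or PRMT1-KO replicate 1 and under both scalings (0.54 to 0.59). The difference for OAS1 did not pass with a pseudocount of 0.1. Mean OAS1 levels went from 1.04 to 3.84 TPM with MS023 and from 0.0929 to 0.903 TPM in PRMT1-KO. In proportion the rise in PRMT1-KO was the larger, from a very low level. IFI27L2 had 28.6, 37.4 and 39.8 TPM in isgCtrl and 57.1, 47.0 and 40.8 TPM in PRMT1-KO, with effects of 0.76 and 0.44 and a difference of 0.32 (interval -0.22 to 0.86).

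**Figure D4:**
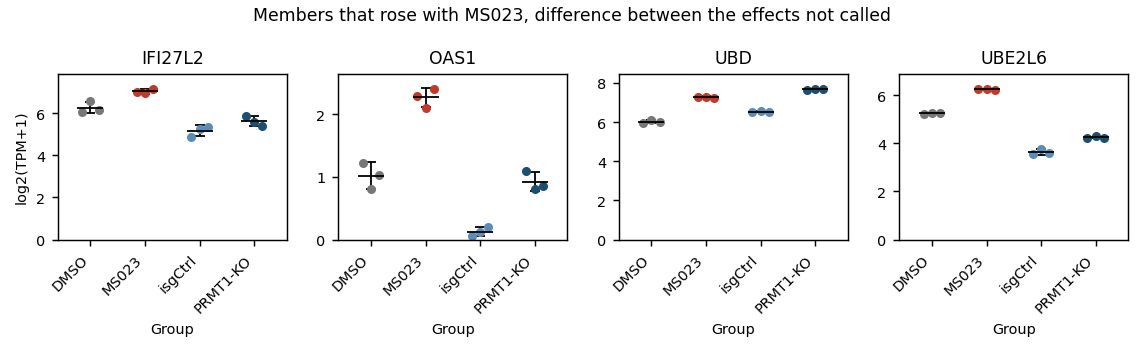
Level in log2(TPM+1) (vertical axes, from 0) of the 4 members that rose with MS023 and whose difference between the MS023 and PRMT1-KO effects was not called, in the 4 groups (horizontal axes). Points are samples and bars the mean and SD of 3; in each panel all MS023 samples lie above all DMSO samples and all PRMT1-KO samples above all isgCtrl samples.

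The controls themselves differed, which bears on how high the members stood before either perturbation. isgCtrl and DMSO differ in Cas9, guide vector, selection, doxycycline, solvent and culture at once, and these cannot be told apart. The comparison also shares its samples with those above, so only its own values are given. Of the 34 members tested, 18 were lower in isgCtrl and UBD was higher (0.50 ± 0.06, adjusted p = 0.00310), beside 13.9% of all 12661 genes tested that were called, 7.23% higher and 6.70% lower. At an unadjusted p under 0.05 there were 28 members and 46.9% of all genes. All isgCtrl samples were below all DMSO samples for 25 members (19.9% of all genes) and above them for 4 (31.8%). The median log2 fold change was -0.64 over the members and 0.07 over all genes. Of the 18, 9 passed the expression threshold only through DMSO (HERC5, OAS1, ISG20, MX1, GBP1, GBP4, PARP9, DTX3L and IFI44), so they could enter the test only by being lower in isgCtrl. Among the 25 members above the threshold in both groups, 9 were lower.

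ISG20 showed the widest gap, with at most 0.888 TPM in isgCtrl against at least 20.5 TPM in DMSO (-3.71 ± 0.12, adjusted p = 5.5e-05). IFI6 was lower by a log2 fold change of -1.98 ± 0.19 (adjusted p = 0.00169) and UBE2L6 by -1.62 ± 0.07 (adjusted p = 1.6e-04). GBP1 had 0.841, 0.252 and 0.126 TPM in isgCtrl (-1.83 ± 0.20, adjusted p = 0.00229), and MX1 had 0.613, 0.279 and 0.367 TPM (-1.73 ± 0.13, adjusted p = 8.0e-04). Both are GTPases of the interferon response, and neither reached 1 TPM in any isgCtrl sample. PARP9 had 0.122, 0.136 and 0.128 TPM (-1.38 ± 0.10, adjusted p = 7.8e-04), and its partner DTX3L 0.0449, 0.138 and 0.118 TPM (-0.92 ± 0.06, adjusted p = 7.1e-04). HERC5 was at 0.907, 1.30 and 0.581 TPM (-1.22 ± 0.15, adjusted p = 0.00341).

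The other members called lower were IFI27L2 (-1.09), GBP4 (-1.06), IFI44 (-0.98), EPSTI1 (-0.94), OAS1 (-0.89), BST2 (-0.85), APOL6 (-0.84), IFI35 (-0.67), RTP4 (-0.67) and SAMD9L (-0.59). IFI44 had 0.234, 0.0508 and 0.571 TPM in isgCtrl, APOL6 2.44, 2.05 and 2.75 TPM, and IFI35 11, 13.5 and 11.9 TPM, each below its lowest DMSO sample. RTP4, at 0.994, 1.70 and 1.05 TPM in isgCtrl, lost its call without DMSO replicate 1 or 3 or isgCtrl replicate 1 or 3 (adjusted p 0.0529 to 0.0604). UBD fell under the fold change threshold without DMSO replicate 1 (0.477) and under median-ratio scaling (0.43) and quantile normalization (0.43). With 1 sample left out, IFITM3 became lower (without DMSO replicate 3, -1.05), and ADAR (0.49) and GBP2 (0.65) became higher (without isgCtrl replicate 2). That isgCtrl sample had the most fibroblast marker RNA, 13.5 TPM summed over 4 genes against 1.31 at the lowest in its group. The part of this RNA in the calls was not tested.

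The genes that lead to these effectors were read in the same fits, from lists of 10 interferon ligands, 21 receptors, JAK, STAT and IRF factors, and 20 nucleic acid sensors. Of the ligands, IFNA1, IFNB1, IFNE, IFNK, IFNW1, IFNL2 and IFNL3 were listed at 0 in all 12 samples, and IFNA2 only in DMSO replicate 1 at 0.0329 TPM. IFNG, the type II interferon, was present at 12.8, 15.8 and 11.8 TPM in DMSO and fell to 5.60, 5.40 and 6.02 TPM with MS023 (-1.11 ± 0.11, adjusted p = 7.1e-04). IFNL1, a type III interferon, was near 1 TPM, at 0.521, 0.830 and 0.609 TPM against 1.34, 1.03 and 1.61 TPM (0.49 ± 0.12, adjusted p = 0.0171). It exceeded the expression threshold only in MS023, and its call was lost without DMSO replicate 1 or 3 or MS023 replicate 1 or 3 (0.40 to 0.48).

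With MS023, 14 of 38 genes of these lists that were tested rose and 4 fell, beside 11.6% higher and 19.3% lower among all genes, so the falls were no more frequent than in all genes. Under quantile normalization the split was 16 to 2. Those that fell included IFNG, IFNAR2 and IFIH1, a sensor of viral RNA (-0.60 ± 0.06, adjusted p = 6.4e-04). The call of IFIH1 was lost under quantile normalization (-0.46). STAT2 and IRF9, transcription factors that act on the ISRE, rose by 0.60 ± 0.11 (adjusted p = 0.00653) and 0.77 ± 0.14 (adjusted p = 0.00540). The largest rises were SOCS3, a feedback inhibitor of cytokine receptors, from 2.92, 3.06 and 3.48 TPM to 14.7, 14.8 and 14.7 TPM (1.92 ± 0.07, adjusted p = 5.5e-05) and IRF7, a factor that drives interferon genes, from 5.22, 5.46 and 6.33 TPM to 17.3, 19.4 and 24 TPM (1.66 ± 0.13, adjusted p = 3.2e-04). They were followed by IRF8 (1.43), the nucleic acid sensors ZBP1 (1.16) and AIM2 (1.11), and STING1 (1.03), the adaptor of the DNA sensor cGAS. TLR7 (1.02), IRF1 (0.91) and SOCS1 (0.58) also rose. TLR7 exceeded the expression threshold only in MS023. Its call was lost without DMSO replicate 1 or 3 or MS023 replicate 1 or 3 (adjusted p 0.0518 to 0.0578). Of the receptor chains, IFNAR2 fell (-0.52 ± 0.06, adjusted p = 8.6e-04), but not past the threshold under median-ratio scaling (-0.41) or quantile normalization (-0.40). IFNAR1 did not pass the fold change threshold (-0.35). In the other direction, IL10RB rose (0.91 ± 0.09, adjusted p = 7.5e-04). IFNLR1 (0.39) and IFNGR2 (0.34) passed the adjusted p (0.0177 and 0.0350) but not the fold change threshold, and IFNGR1 (0.08) passed neither.

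In PRMT1-KO, 1 of 32 tested genes of these lists rose and none fell, beside 0.415% higher and 0.781% called among all genes. There were 8 with an unadjusted p under 0.05, where 18.6% of all genes passed. The gene was IFI16, a DNA-binding sensor, at 1.38, 1.63 and 1.85 TPM in isgCtrl and 4.62, 3.79 and 4.12 TPM in PRMT1-KO (0.98 ± 0.09, adjusted p = 0.0239). It also rose with MS023 (1.01 ± 0.12, adjusted p = 0.00105), but its call in PRMT1-KO was lost when any of the 6 samples was left out.

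**Figure D5:**
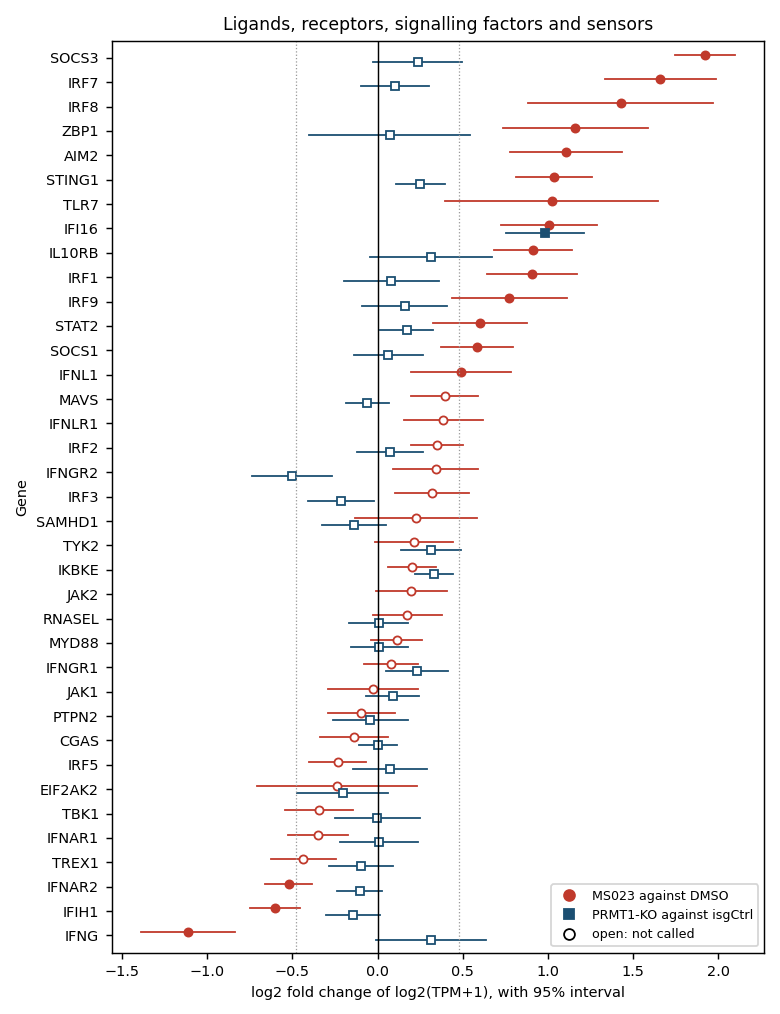
Log2 fold change of log2(TPM+1) with its 95% interval (horizontal axis) for interferon ligands, receptors, signalling factors and sensors tested with MS023 (vertical axis), in MS023 against DMSO (red circles) and PRMT1-KO against isgCtrl (blue squares, where tested). Filled symbols passed the test; SOCS3 (1.92) is at the top, IFNG (-1.11) is at the bottom, and IFI16 is the only filled blue square.

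In isgCtrl against DMSO, 8 of 35 tested genes of these lists were lower and 1 was higher, beside 6.70% lower and 7.23% higher among all genes. The sensors AIM2 (-2.96 ± 0.18, adjusted p = 4.2e-04) and IFI16 (-2.60 ± 0.13, adjusted p = 2.1e-04) had the widest gaps, followed by SAMHD1 (-1.53), ZBP1 (-1.47), IRF8 (-1.19), IRF1 (-1.18), IL10RB (-1.06) and IFNG (-0.80). IFNGR2, a chain of the type II receptor, was higher (0.78 ± 0.10, adjusted p = 0.00356). AIM2 held 8.57, 10.7 and 7.31 TPM in DMSO and 0.111, 0.149 and 0.545 TPM in isgCtrl.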

How the data were processed

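Gene expression of 12 JJN3 samples was analysed from the gene-level log2(TPM+1) values that the authors deposited. Per the labels and the study's methods, reads were checked with FastQC, trimmed with Trimmomatic, mapped with STAR to hg38 and quantified with Salmon on GENCODE transcripts. Tool versions and strandedness are not given in the sources used here. TPM sum to the same total in every sample, so depth cannot be read from them and no count model was used. Every deposited sample column was used.

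Groups were taken from sample titles. limma 3.58.1 (R 4.3.3, eBayes without trend) was fitted to genes whose mean log2(TPM+1) exceeded 1 in at least 1 compared group, on the samples of a comparison, and for MS023 minus PRMT1-KO on all 12. Calls needed a Benjamini-Hochberg adjusted p under 0.05 over all genes tested with a log2 fold change beyond 0.48 in either direction, as in the study's methods. With MS023 these calls covered 3986 genes, several times the number the study reports. In PRMT1-KO they covered 96 genes, close to its number. The source of the gap with MS023 was not tested. Errors are SE for differences and SD of 3 samples for levels. An exact permutation test of 3 against 3 cannot go below p = 0.1 and was not used for calls. The code was tested on simulated data.

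The members, their roles, the pathway lists and the tests were chosen with earlier results of these data known. All members are accounted for. One gene of the pathway lists is counted but not reported here. Called members are named, with sample values for the 8 largest changes and for members called in more than 1 comparison. Apart from the gene not reported here, called pathway genes are named for MS023, PRMT1-KO and isgCtrl against DMSO. None is named for the difference between the effects. With MS023 more than 24 members were called and all 28 are given. No correction was made for the 21 members with an exon that overlaps another gene.

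Alternatives were other expression filters, quantile normalization, scaling by median ratios, a pseudocount of 0.1, a trended eBayes prior, the replicate number as a block, all 12 samples in 1 fit, each sample left out, other fold change thresholds, and members without UBD and IFI27L2. Positions come from GENCODE v44 and promoters from RefSeq.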

Additional observations from a re-analysis of the deposited data

Results flagged for a closer look

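For 24 members the effect of MS023 against DMSO differed from that of PRMT1-KO against isgCtrl by a test of the difference itself (limma, adjusted p below 0.05 with a log2 difference beyond 0.48). In all 24 the MS023 effect was the higher, but USP18, IFIT1, IFIT2, OAS2, OASL and LGALS3BP exceeded the expression threshold in the MS023 group alone, so these 6 could enter the test only by being high there. Without them 18 of 35 members differed. Those 18 still include HERC5, MX1, GBP1, PARP9, DTX3L and IFI44, which were under the threshold in both isgCtrl and PRMT1-KO. The log2 differences were 1.79 for GBP2, 1.70 for OASL, 1.62 for MX1, 1.55 for OAS2, 1.48 for IFI44, 1.44 for ISG15 and 1.44 for ISG20. They were 1.19 for PARP9, 1.12 for IFI6, 1.1 for IFITM2, 1.09 for USP18, 1.08 for IFIT3, 1.07 for IFIT2 and 1.02 for SP110. IFIT1 (0.99), LGALS3BP (0.98), DTX3L (0.96), GBP1 (0.92), IFI35 (0.88), APOL6 (0.86), IFITM1 (0.81), BST2 (0.74), HERC5 (0.67) and TRIM21 (0.60) followed. Of these genes, ISG20, MX1, IFI44, PARP9, IFI6, DTX3L, GBP1, IFI35, APOL6, BST2 and HERC5 also stood lower in isgCtrl than in DMSO, and the part of that lower starting level in the differences was not tested.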

How the results depend on the processing

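No called member changed sign under any alternative, and the same 28 members were called with MS023 under both scalings, the other pseudocount and eBayes with trend. With an absolute log2 fold change above 1, the members called were 17 with MS023, 1 in PRMT1-KO, 9 in isgCtrl against DMSO and 14 for the difference between the effects. With log2(TPM+1) above 1 in every sample they were 19 with MS023, where 9 of the 28 were not tested (USP18, IFIT1, IFIT2, IFIT3, OAS1, OAS2, OASL, LGALS3BP and DTX3L), 9 in isgCtrl against DMSO and 10 for the difference, since low members were then not tested. In PRMT1-KO the count of 2 became 1 when all genes above 0 were fitted and 1 without UBD and IFI27L2. It ranged from 1 to 2 over the samples left out. The pathway lists in PRMT1-KO gave 2 calls instead of 1 with eBayes with trend and with all 12 samples in 1 fit, and 0 with any sample left out. PRMT1 itself, not called with MS023 (0.04), changed sign under quantile normalization (-0.0298). OAS2 also lost its MS023 call when all genes above 0 were fitted, and GBP4 gained one with all 12 samples in 1 fit (0.58). With a pseudocount of 0.1 the difference between the effects lost HERC5, IFI44, LGALS3BP and GBP1.

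The replicate numbers did not pair the samples: deviations of same-numbered samples correlated at 0.02, 0.07 and 0.10 for MS023 and DMSO and at -0.14, 0.07 and -0.07 for PRMT1-KO and isgCtrl, and 2 and 1 of 3 samples matched their own number best. With the replicate block, 29 members were called with MS023, 0 members and 0 pathway genes in PRMT1-KO (UBD adjusted p = 0.164, PRMT1 0.149), 18 in isgCtrl against DMSO and 24 for the difference. Low members limit the comparison of PRMT1-KO with isgCtrl, where 23 of 50 could not be tested.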
